A study of Mus musculus with 9 samples.

Results

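The genes described here are 9 genes of reactive oxygen and nitrogen chemistry, taken by symbol from the 23420 genes of the table of 9 RNA-seq libraries. They are Cybb, Cyba, Ncf1, Ncf4 and Rac2 of the phagocyte NADPH oxidase, its homologue Nox4, the inducible nitric oxide synthase gene Nos2, and the superoxide dismutase genes Sod2 and Sod3. All 9 were found. The libraries were made from primary ankle cells of C57BL/6 mice at passage 1, with 3 libraries in each of 3 groups. ADSM are synovial macrophages and ADSF synovial fibroblasts from ankles of mice with collagen antibody-induced arthritis (CAIA), which was raised by injecting an antibody cocktail against type II collagen followed by lipopolysaccharide. NDSF are synovial fibroblasts from ankles of normal mice, for which the methods describe no injection. The methods state female mice of no given age. Fibroblasts were the cells that attached early to a collagen-coated dish. ADSM were grown for longer from the cells that did not attach, on an uncoated dish from which fibroblasts had been removed with trypsin, so cell type and culture procedure cannot be told apart, and there were no macrophages from normal ankles. The methods name the TruSeq kit for ADSM and ADSF and the NEBNext Ultra II Directional kit for NDSF, whereas the deposited labels give TruSeq for all 9 libraries. If the methods are right, ADSF and NDSF differ in kit as well as in disease, and these cannot be told apart. The paper describes the cultures as derived from independent ankles, but no label ties a library to an ankle or animal. The p-values measure only the spread between these libraries.

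The phagocyte oxidase, also called NOX2, moves electrons from NADPH across a membrane onto oxygen and so makes superoxide. Its catalytic subunit, the product of Cybb, sits in the membrane with the product of Cyba, and stays silent until cytosolic proteins, among them the products of Ncf1 and Ncf4 and the small GTPase Rac, join it. NOX4 is a homologue that also pairs with the Cyba product but is active without the cytosolic subunits and releases mainly hydrogen peroxide. The mitochondrial Sod2 enzyme and the extracellular Sod3 enzyme turn superoxide into hydrogen peroxide, and Nos2 makes nitric oxide from arginine in activated macrophages. In inflamed joints, such oxidants are known both as products of phagocytes and as signals of stromal cells.

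RefSeq promoter sequences on GRCm38.p6, the mm10 assembly, matched 5 of the 9 genes, each with 250 bases before and 50 bases after the start site. The bases upstream of the start site are shown for 4 of them, because Cybb and Ncf1 were both high in ADSM, Nox4 was read in fibroblasts alone, and the Sod2 promoter held the most matches. Capitals mark matches to a motif.

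Cybb (chrX:9469325-9469574, minus strand): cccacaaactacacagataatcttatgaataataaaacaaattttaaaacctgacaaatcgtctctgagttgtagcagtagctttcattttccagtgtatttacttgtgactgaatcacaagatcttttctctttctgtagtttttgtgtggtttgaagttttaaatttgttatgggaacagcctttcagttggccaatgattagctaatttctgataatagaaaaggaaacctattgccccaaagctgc

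Ncf1 (chr5:134229626-134229875, minus strand): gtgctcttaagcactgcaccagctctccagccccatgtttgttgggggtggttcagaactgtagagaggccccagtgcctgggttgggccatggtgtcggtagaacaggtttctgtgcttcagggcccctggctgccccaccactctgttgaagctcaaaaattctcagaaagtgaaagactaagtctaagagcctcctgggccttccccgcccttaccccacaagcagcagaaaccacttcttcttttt

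Nox4 (chr7:87246399-87246648, plus strand): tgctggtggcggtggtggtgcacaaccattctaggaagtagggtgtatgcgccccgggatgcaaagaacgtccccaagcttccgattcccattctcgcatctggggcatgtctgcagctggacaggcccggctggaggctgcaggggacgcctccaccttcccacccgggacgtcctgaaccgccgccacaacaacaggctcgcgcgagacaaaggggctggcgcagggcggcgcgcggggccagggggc

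Sod2 (chr17:13007589-13007838, plus strand): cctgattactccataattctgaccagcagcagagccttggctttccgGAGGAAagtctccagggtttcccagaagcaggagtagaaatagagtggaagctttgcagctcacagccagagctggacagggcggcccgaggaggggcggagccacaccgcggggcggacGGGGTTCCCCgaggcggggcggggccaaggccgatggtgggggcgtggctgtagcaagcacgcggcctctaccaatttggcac

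Short motifs were searched on both strands of the 300 bases. They were GAGGAA, the core of sites for the myeloid factor PU.1, held by 28.3% of 32851 promoters, TGACNNNGC, the core of the antioxidant response element (12.4%), the NF-kB consensus (8.46%) and TGACGTCA, the cyclic AMP response element (1.79%). The Sod2 promoter held GAGGAA at bases -203 to -198 and a palindromic NF-kB consensus match at bases -83 to -74, counted from the start site. Cybb had no match upstream. It held GAGGAA on the opposite strand from base 10 to base 15 after the start site, in capitals in the stretch ctgttttcatTTCCTCatcagaagaaga. None of the motifs matched in the windows of Ncf1, Nox4 and Cyba, which says only that these letters are not there. The deposited table starts Nox4 at a site 146 bases downstream of the RefSeq start. Nos2, for which RT-qPCR was also set up in the study, was amplified with the forward primer gttctcagcccaacaatacaaga and the reverse primer gtggacgggtcgatgtcac. In the GENCODE annotation they bound a product of 127 bases on chromosome 11 of mm10, with the forward primer running from 78922370 in exon 2 of 27 across a splice junction to 78928588 and the reverse primer at 78929781 to 78929799 in exon 4. The forward primer was found in 1 of 3 annotated Nos2 transcripts and the reverse primer in all 3.

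RNA levels are given as deposited, as a signal per gene scaled between libraries by TMM (trimmed mean of M values), in which 1 read was worth 0.854 to 1.24. The recovered reads totalled 2380483 to 3073890 in ADSM, 2580998 to 3220692 in ADSF and 3142495 to 3351184 in NDSF libraries. A limma model of log2(value + 1) was fitted to the 11889 genes that reached 10 in 3 or more libraries, and genes passed at a Benjamini-Hochberg adjusted p under 0.05 over all of these. Each log2 fold change (log2FC) is on this scale, where the added 1 shrinks the change of genes with few reads. Of the 9 genes, 8 were tested and Nos2 was too low. NDSF library 3 stood apart, with a chi-square of reads per degree of freedom of 21 and 16.5 against NDSF libraries 1 and 2, which differed from each other by 1.71. The 6 macrophage markers summed to 11101 to 12262 in ADSM, 203.5 to 373.4 in ADSF and 272.2 to 522.4 in NDSF. Among these, Mertk was near 0 in ADSM, at 0 to 4.67. The 6 fibroblast markers summed to 42.7 to 98.1 in ADSM and to at least 68433 in each fibroblast library. Of 9 markers of neutrophils, which also carry NOX2, S100a9, Elane, Ltf and Ngp had no read in any library and the sum was at most 35.0. Cxcr2 and Csf3r were read, with means of 18.7 and 10.6 in ADSM, 8.63 and 1.74 in ADSF and 7.04 and 1.27 in NDSF. Y-linked genes summed to a mean of 398 in ADSM and 0 in both fibroblast groups. Xist, an RNA of female cells, had means of 2.07 in ADSM, 2815 in ADSF and 2090 in NDSF. By these values ADSM were male and both fibroblast groups female, whereas the methods state female mice. Sex or source of the cells therefore cannot be told apart from cell type in comparisons with ADSM.

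In ADSF, 6 of the 8 tested genes were lower than in ADSM, namely Cybb, Cyba, Ncf1, Ncf4, Rac2 and Sod2, against 30.1% of all tested genes called lower. The other 2, Nox4 and Sod3, were higher, against 41.0% of all tested genes called higher. In NDSF the same 6 genes were lower, against 32.0% of all tested genes, and the same 2 were higher, against 43.3%. The median log2FC over all tested genes was 0.14 for ADSF and 0.18 for NDSF against ADSM. These calls and directions held for all 8 genes in all 20 alternative settings. Both comparisons share the ADSM libraries and are set side by side for each gene. When libraries were scaled by their totals alone, the genes passing between ADSF and ADSM divided into 3986 higher and 4926 lower, in place of 4874 higher and 3577 lower.

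**Figure D1:**
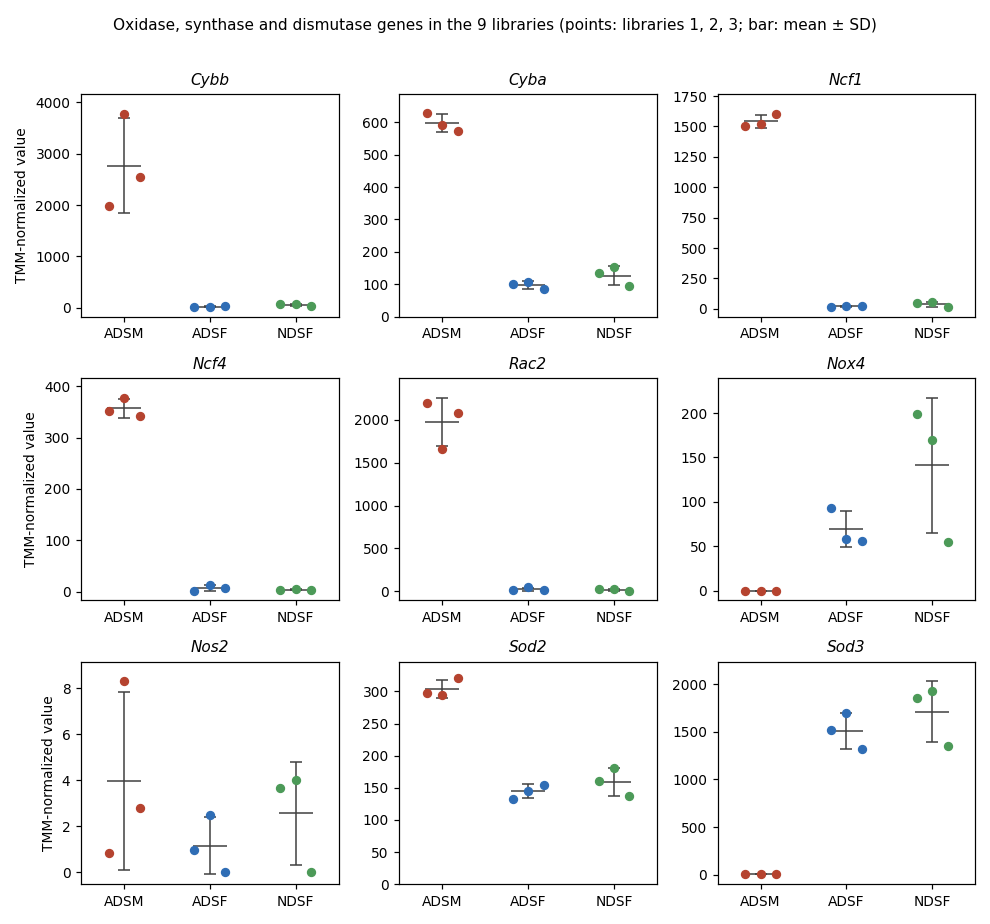
TMM-normalized value (y axis, linear, a separate scale for each gene) of the 9 genes in the ADSM, ADSF and NDSF libraries, with points for libraries 1 to 3 from left to right and a bar for the mean ± SD. The 5 phagocyte oxidase genes and Sod2 are highest in the 3 ADSM libraries, Nox4 is at 0 there, and in Nox4, Cybb and Ncf1 the NDSF libraries 1 and 2 lie above NDSF library 3.

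Cybb, the gene for the catalytic subunit (chrX:9435252-9469324 on mm10, 13 exons), had values of 1975, 3777 and 2553 in ADSM libraries 1, 2 and 3. It had 20.8, 12.4 and 27.6 in ADSF and 69.0, 62.9 and 26.3 in NDSF. All ADSM libraries thus lay far above all fibroblast libraries, and the spread within ADSM was the widest of the oxidase genes. Group means were 2768 ± 920.1 (SD, n = 3) for ADSM, 20.3 ± 7.61 for ADSF and 52.7 ± 23.1 for NDSF. Against ADSM, Cybb had a log2FC of -7.04 in ADSF (standard error, SE, 0.385, adjusted p = 3.25e-08, limma) and -5.75 in NDSF (SE 0.385, adjusted p = 1.57e-07, limma). Cybb lies on the X chromosome.

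Cyba, the gene for the membrane partner of both NOX2 and NOX4 (chr8:122424771-122432940, 6 exons), fell by much less. Its values were 627, 591 and 572 in ADSM, 102, 107 and 85.3 in ADSF, and 133, 154 and 93.9 in NDSF. The ADSM libraries were close together, and no fibroblast library reached them. With respect to ADSM, log2FC was -2.60 in ADSF (SE 0.172, adjusted p = 1.52e-07, limma) and -2.25 in NDSF (SE 0.172, adjusted p = 4.59e-07, limma). Each fibroblast library kept 14.3 to 25.8% of the ADSM mean.

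Ncf1 encodes the organizer subunit that is phosphorylated when the oxidase is switched on. It is at chr5:134220260-134229625 and had values of 1504, 1522 and 1603 in ADSM. In ADSF it had 14.9, 23.6 and 25.2, and in NDSF 45.1, 53.9 and 16.9. The ADSM libraries differed little among themselves, and NDSF library 3 was at the level of ADSF. Ncf1 thus had a log2FC of -6.15 in ADSF (SE 0.358, adjusted p = 5.33e-08, limma) and -5.44 in NDSF (SE 0.358, adjusted p = 1.37e-07, limma). Ncf1 shares 408 exonic bases with Gtf2ird2 on the opposite strand. Whether reads were counted by strand was not given in the sources used here. Gtf2ird2 had a mean value of 45.2 in ADSM, 25.2 in ADSF and 27.7 in NDSF, close to the level of Ncf1 in the fibroblast groups.

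Ncf4, whose product binds a membrane phosphoinositide and holds the complex on the phagosome, is at chr15:78244811-78262580. Its values were 351, 378 and 343 in ADSM, 1.99, 13.7 and 7.21 in ADSF, and 2.76, 5.99 and 3.75 in NDSF. The fibroblast values rest on 19 reads in all of ADSF and 13 in all of NDSF. Relative to ADSM the log2FC was -5.65 in ADSF (SE 0.482, adjusted p = 1.25e-06, limma) and -6.16 in NDSF (SE 0.482, adjusted p = 5.67e-07, limma).

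Rac2, the Rac GTPase of blood cells (chr15:78559169-78572783), had 2189, 1660 and 2082 in ADSM. It had 14.9, 46.1 and 16.8 in ADSF and 28.5, 23.0 and 7.51 in NDSF. ADSF library 2 was the highest fibroblast library for both Rac2 and Ncf4. For Rac2 the log2FC was -6.37 in ADSF (SE 0.479, adjusted p = 4.35e-07, limma) and -6.75 in NDSF (SE 0.479, adjusted p = 2.52e-07, limma).

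The level that remained in fibroblasts divided the oxidase genes. Cybb, Ncf1, Ncf4 and Rac2 were at 0.38 to 3.83% of the ADSM mean in every fibroblast library, and Cyba was at least at 14.3%. Over the same libraries the macrophage markers Csf1r and Cd68 were at 1.1 to 6.41%, Emr1 and Itgam at 6.24 to 29%, and Fcgr1 at 0 to 4.62%. Mertk went the other way, at 117% of its low ADSM mean or more. In these bulk samples, fewer cells of a type and less RNA per cell cannot be told apart, and the part of residual macrophages in the fibroblast values was not tested.

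**Figure D2:**
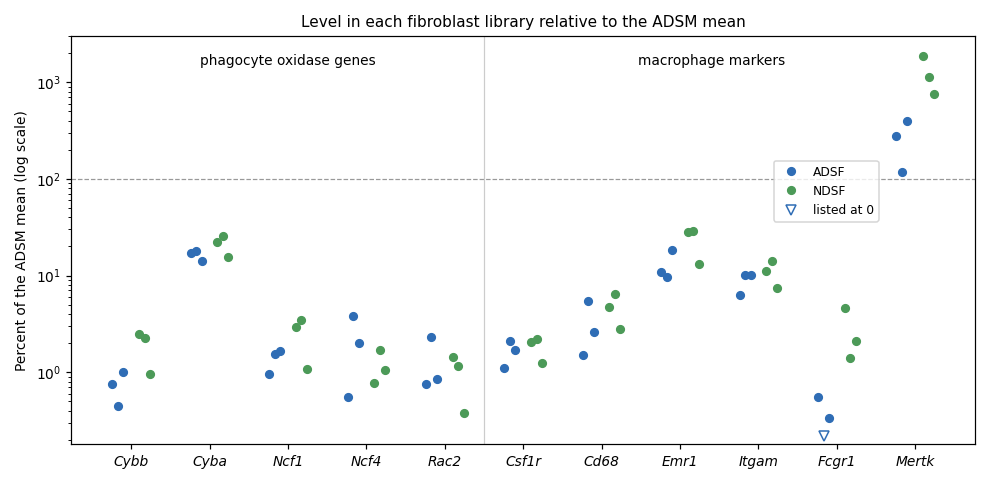
Level of 5 phagocyte oxidase genes and 6 macrophage markers in each ADSF and NDSF library as a percent of the ADSM mean of the same gene (y axis, log scale; dashed line, 100%; open triangle, a library listed at 0). Cyba lies at 14.3 to 25.8%, above every point of Cybb, Ncf1, Ncf4 and Rac2.

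Nox4 (chr7:87246795-87398606, 18 exons in the table) was the reverse of Cybb. It had no read in any of the 3 ADSM libraries. It had values of 93.3, 58.5 and 56.5 in ADSF and 199, 169.8 and 54.4 in NDSF. Set against 3 reads over the ADSM group, the ADSF mean of 69.4 ± 20.7 (SD, n = 3) was at least 73.7-fold higher and the NDSF mean of 141 ± 76.4 at least 150-fold higher, where the floor covers counting error only. Nox4 passed in both comparisons (adjusted p = 2.64e-07 for ADSF and 8.37e-08 for NDSF, limma), with no overlap between ADSM and fibroblast libraries.

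Per kb of exon, Cyba had 0.979 to 1.99 times the value of Cybb in ADSM, 19.3 to 53.8 times in ADSF and 12.1 to 22.4 times in NDSF. The Cyba value per kb was 5.06 to 8.44 times that of Nox4 in ADSF and 3.1 to 7.96 times in NDSF. Cyba was therefore the more abundant transcript beside either catalytic subunit in all fibroblast libraries, while in ADSM it was above Cybb in libraries 1 and 3 and close to it in library 2. Ncf1 per kb was 0.704 to 1.33 times Cybb in ADSM, 1.25 to 3.32 times in ADSF and 1.12 to 1.5 times in NDSF, with ADSF library 2 the highest. These ratios describe the libraries and carry no test.

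The superoxide dismutases split. Sod3, the secreted enzyme that binds to the matrix (chr5:52363804-52369738, 2 exons), had 0.854, 3.11 and 1.87 in ADSM, which are 6 reads in all. It had 1516, 1700 and 1315 in ADSF and 1856, 1935 and 1349 in NDSF. Every fibroblast library was thus far above every ADSM library. With the reads of each group pooled and divided by its summed TMM-scaled depth, the ratio to ADSM was 806 in ADSF (95% counting interval 369.8 to 2196) and 913 in NDSF (419.2 to 2489), and the adjusted p was 2.32e-10 and 1.98e-10 (limma).

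Sod2, the manganese enzyme of mitochondria (chr17:13007839-13018119), had 297, 294 and 321 in ADSM, 133, 146 and 155 in ADSF, and 160.1, 181 and 137 in NDSF. It was the gene with the smallest change, at 47.6% of the ADSM mean in ADSF and 52.4% in NDSF, and its groups of macrophage and fibroblast libraries did not overlap. Its log2FC was -1.07 in ADSF (SE 0.125, adjusted p = 1.72e-05, limma) and -0.94 in NDSF (SE 0.125, adjusted p = 4.41e-05, limma). Sod3 per kb of exon was 15.9 to 21.8 times Sod2 in ADSF and 18.4 to 21.7 times in NDSF, against 0.00537 to 0.0198 times in ADSM.

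Nos2 (chr11:78920859-78960124, 27 exons) was near the limit of detection everywhere. Its values were 0.854, 8.30 and 2.80 in ADSM, 0.993, 2.49 and 0 in ADSF, and 3.68, 3.995 and 0 in NDSF. They rest on 12, 3 and 8 reads, and the groups overlap. As CPM over all reads of a group this was 1.46 in ADSM (exact 95% Poisson interval 0.754 to 2.55), 0.353 in ADSF (0.0728 to 1.03) and 0.823 in NDSF (0.355 to 1.62), intervals that cover counting error only. Without the filter on low values, log2FC was -1.08 in ADSF against ADSM (95% interval -2.73 to 0.57, adjusted p = 0.255, limma), -0.50 in NDSF against ADSM (-2.14 to 1.15, adjusted p = 0.578) and -0.58 between ADSF and NDSF (-2.23 to 1.06, adjusted p = 0.621). A difference was not detectable at this depth.

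**Figure D3:**
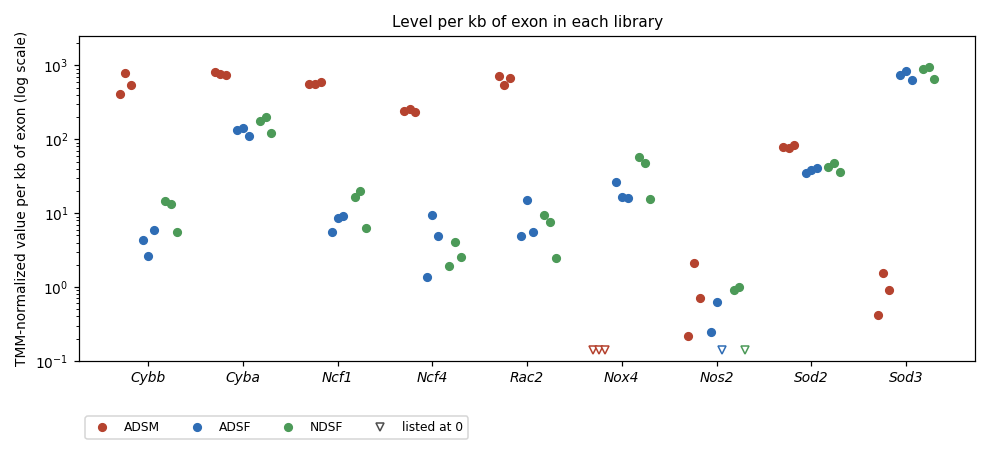
TMM-normalized value per kb of exon (y axis, log scale) for the 9 genes in each ADSM, ADSF and NDSF library, with open triangles at the foot for libraries listed at 0. In ADSM the 5 phagocyte oxidase genes lie above Sod2, and in both fibroblast groups Sod3 is the highest and Cyba the next highest of the 9.

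By the FPKM values deposited for ADSM and ADSF, Cyba led in ADSM at 330.5 ± 15.1 (SD, n = 3), above 98.1% of the genes with an FPKM over 0. Rac2 followed at 224 ± 28.7, Cybb at 205 ± 70.5 and Ncf1 at 203 ± 7.77, and these 3 did not differ beyond their spread. Ncf4 was lower at 90.7 ± 4.41 and Sod2 at 28.2 ± 1.29 (above 78.2%), while Nos2 at 0.357 ± 0.349 and Sod3 at 0.353 ± 0.209 did not separate. In ADSF the order was headed by Sod3 at 280 ± 33.6, above 98.2% of genes, then Cyba at 57.3 ± 6.19, Sod2 at 13.8 ± 1.11 and Nox4 at 7.18 ± 2.2. Then came Rac2 at 3.1 ± 2.03, Ncf1 at 2.91 ± 0.78, Ncf4 at 1.96 ± 1.42 and Cybb at 1.55 ± 0.592, whose ranges overlapped, with Ncf1 above Cybb in each of the 3 libraries. The cytosolic dismutase Sod1, no member of the set, was higher than all 9 in ADSM at 784 ± 226 FPKM and was level with Sod3 in ADSF at 293 ± 19.8.

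ADSF and NDSF are both fibroblast cultures that differ in disease and, by the methods, in library kit. Between them, only Cybb of the 8 tested genes passed, with 21.2% of all tested genes called in either direction. Its ADSF values of 12.4 to 27.6 overlapped the NDSF values of 26.3 to 69.0, since ADSF library 3 lay above NDSF library 3. The Cybb log2FC was -1.29 (95% interval -2.14 to -0.43, adjusted p = 0.0385, limma, with 0.00252 to 0.149 over the alternatives). The call was lost without ADSM library 3 (adjusted p = 0.0538, limma), ADSF library 1 (0.0724), ADSF library 2 (0.144), NDSF library 1 (0.147) or NDSF library 2 (0.149), with these 2 groups alone in the model (0.0924), with a replicate block (0.0576) and without the trend (0.0667). The listed macrophage markers Fcgr1 (log2FC -2.36, adjusted p = 0.00626, limma) and Mertk (-2.08, adjusted p = 0.0372, limma) were also lower in ADSF. Csf1r (-0.18), Cd68 (-0.65), Emr1 (-0.81) and Itgam (-0.28) did not pass. The Fcgr1 difference rests on few reads, 3 from ADSF against 31 from NDSF. Mertk did not mark the macrophages of these libraries, as its NDSF mean of 26.5 lay above its ADSM mean of 2.13. The Mertk call was lost in 6 of 16 alternatives and that of Fcgr1 in 0 of 20. Their part in the Cybb difference was not tested.

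The other 7 tested genes did not pass, and their intervals leave room for changes of different size. Ncf1 had a log2FC of -0.71 (95% interval -1.50 to 0.08, adjusted p = 0.177, limma), Cyba of -0.35 (-0.73 to 0.03, 0.173) and Nox4 of -0.85 (-1.81 to 0.11, 0.181). Sod2 had the narrowest interval of the 8, at -0.13 (-0.41 to 0.14, 0.477), and Sod3 was at -0.17 (-0.74 to 0.39, 0.664). Ncf4 at 0.51 (-0.56 to 1.58, 0.481) and Rac2 at 0.38 (-0.68 to 1.44, 0.601) were the only ones with a positive sign.

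NDSF library 3 weighed on this comparison. Without it, 4 of the 8 genes were lower in ADSF, with log2FC of -1.72 for Cybb (adjusted p = 0.00252, limma), -1.21 for Ncf1 (0.0016), -1.43 for Nox4 (0.00347) and -0.55 for Cyba (0.00812). The number of all genes that passed then rose from 2518 to 4086. In library 3 itself, Cybb, Ncf1 and Cyba lay within the range of the ADSF libraries and Nox4 just under it, whereas NDSF libraries 1 and 2 were above that range for all 4. Ncf4 passed as higher in ADSF only without ADSF library 1 (log2FC 1.14, adjusted p = 0.0446, limma). Without ADSF library 2 the Ncf4 and Rac2 differences went to -0.01 and -0.11, and without NDSF library 3 the Rac2 difference went to -0.17. Endothelial markers summed to 50.5 to 58.6 in ADSF and 133 to 350 in NDSF, and skeletal muscle markers to 51.0 to 92.6 and 474 to 1112, and what part these cells had was not tested.

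**Figure D4:**
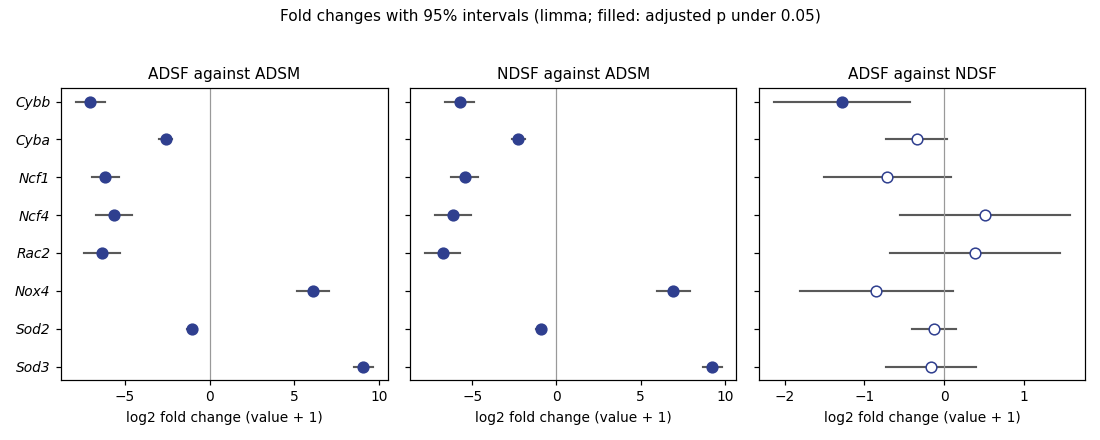
Log2 fold change on the value + 1 scale (x axis, a separate range in each panel) with its 95% interval for the 8 tested genes in the 3 comparisons, filled where the limma adjusted p was under 0.05. All 8 genes are filled in both comparisons with ADSM and only Cybb is filled between ADSF and NDSF.

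Other genes tracked the members over the 9 libraries. The measure was the root mean square difference of log2(value + 1) after each gene's mean was taken off, with the smallest value as most alike. The nearest genes were Lyl1 (0.314) and Ly86 (0.394) for Cybb, Dock2 (0.178) and Fermt3 (0.241) for Ncf1, Pianp (0.401) and Tyrobp (0.403) for Ncf4, and Lcp2 (0.35) and Cd74 (0.425) for Rac2. Most of these are known from blood cells. Cyba was nearest to Unc93b1 (0.159) and Slc16a1 (0.181), Sod2 to Pxn (0.0741) and Mettl14 (0.0796), Nox4 to Mtus1 (0.282) and Abhd14b (0.302), and Sod3 to Lama4 (0.238) and Sptbn1 (0.306). Among the 9 genes themselves, Cybb and Ncf1 were the closest pair at 0.55, and Ncf4 and Rac2 followed at 0.681.

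Of 13 listed oxidase partners, 5 were tested, and 2 were higher and 3 did not pass in each fibroblast group against ADSM (list medians 0.23 in ADSF and 0.28 in NDSF). Of all tested genes, 41.0% were called higher in ADSF and 43.3% in NDSF, with medians of 0.14 and 0.18. The counts of the list are near these shares. Sh3pxd2a, the gene for the scaffold Tks5, which resembles the Ncf1 product, was higher by 3.48 in ADSF and 3.68 in NDSF on the log2 scale (adjusted p = 1.45e-08 and 8.91e-09, limma). The ubiquitous GTPase gene Rac1 was higher by 0.51 in ADSF and 0.42 in NDSF (adjusted p = 0.00141 and 0.00449, limma), a call that was lost under scaling by library totals. Between ADSF and NDSF, the 5 had adjusted p-values of 0.136 to 0.845 (limma), beside 21.2% of all tested genes called in either direction. Transcripts of the other catalytic subunits were scarce or absent, with Nox3 at 0 in all libraries, Nox1 at no more than 1.71 and Duox2 at no more than 1.20. Duox1 was listed at 0 in ADSM, at 2.98 to 9.62 in ADSF and at 6.57 to 15.7 in NDSF.

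Genes that switch the phagocyte oxidase on were lower in fibroblasts almost throughout. Of 11 tested, 10 were lower and 1 higher in ADSF than in ADSM (list median -2.90), against 30.1% of all tested genes called lower and 41.0% higher. In NDSF the numbers were also 10 and 1 (median -3.28), against 32.0% and 43.3%. Vav1, an exchange factor for Rac, was lower by -5.19 and -4.90, the tyrosine kinase gene Syk by -2.90 and -3.58, and Arhgdib by -2.77 and -3.28 (all adjusted p from 5.59e-10 to 5.28e-08, limma). The 1 higher gene was Prkcb, a protein kinase C gene, with no read in ADSM and a mean of 9.97 in ADSF and 12.1 in NDSF, at least 10.6-fold and 12.8-fold higher. Between ADSF and NDSF, Arhgdib (0.51, adjusted p = 0.00907, limma), Syk (0.68, 0.0188) and Fgr (1.79, 0.0455) were higher in ADSF and Prex1 (-1.23, 0.0475) was lower, and the other 7 did not pass, with 21.2% of all tested genes called. The Fgr difference rests on values of 0.993 to 8.71 in ADSF and at most 0.999 in NDSF and was lost in 12 of 17 alternatives. That of Prex1 was lost in 12 of 20, of Syk in 3 and of Arhgdib in 1.

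Of 19 tested enzymes that clear superoxide and peroxide, 7 were higher and 8 lower in ADSF than in ADSM (median -0.05), beside 41.0% and 30.1% of all tested genes. In NDSF, 7 were higher and 9 lower (median -0.25), beside 43.3% and 32.0%. These counts are not far from the shares over all genes. Lower in both groups were Sod1, Gpx1, Prdx1, Prdx3, Prdx6, Txn1 and Txnrd2. The largest of these falls were those of Txnrd2 (-1.79 in ADSF and -1.86 in NDSF) and Sod1 (-1.41 and -1.50). Gpx8, which encodes a peroxidase of the endoplasmic reticulum, had no read in ADSM and means of 444 in ADSF and 609 in NDSF, at least 470.8-fold and 646-fold higher. Its relative Gpx7 had 1 read in ADSM and a pooled-read ratio of 594 in ADSF (95% counting interval 106 to 23511). Gpx3, which encodes the plasma glutathione peroxidase, had 3 reads in ADSM and means of 645 ± 465 (SD, n = 3) in ADSF and 3309 ± 1413 in NDSF. Prdx5, which encodes a peroxiredoxin, was higher by 1.41 in ADSF and 1.46 in NDSF (adjusted p = 5.24e-07 and 3.69e-07, limma). Gpx4, which reduces lipid peroxides, was higher by 0.71 and 0.78, and Ccs, the copper chaperone gene of Sod1, by 0.82 and 0.50, where the second Ccs call was lost in 4 of 20 alternatives. Against ADSM, Srxn1 was higher by 0.74 in ADSF and did not pass in NDSF. Prdx4 was lower by -0.38 in ADSF and higher by 0.68 in NDSF (adjusted p = 0.0217 and 0.000609, limma). Between ADSF and NDSF, 6 of the 19 were higher and 3 lower (median 0.17), beside 21.2% of all tested genes in either direction. The lower ones were Prdx4, the peroxiredoxin of the endoplasmic reticulum, at 248.7 ± 14.8 against 520.4 ± 63.8 (log2FC -1.06, adjusted p = 0.000737, limma), Gpx3 (-2.69, 0.022) and Gpx8 (-0.46, 0.0499). Mitochondrial thioredoxin Txn2 (0.90, 0.00266) and sulfiredoxin Srxn1 (0.73, 0.00299) were among the higher. The calls of Prdx4, Txn2 and Srxn1 held in all 20 alternatives, whereas that of Gpx8 was lost in 8 and that of Gpx3 in 3.

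Of 17 tested glutathione and Nrf2 genes, 9 were higher and 2 lower in ADSF than in NDSF, against 21.2% of all tested genes called in either direction, with a median of 0.31 beside -0.01 for all tested genes. Nqo1, a quinone reductase and a classical target of the stress factor Nrf2, had 0, 0 and 0 in ADSM, 296, 289 and 402 in ADSF, and 62.6, 63.9 and 102 in NDSF. All ADSF libraries lay above all NDSF libraries, with a log2FC of 2.11 (SE 0.243, adjusted p = 0.000534, limma) that passed in all 20 alternatives. The glutathione synthetase gene Gss was higher by 0.94 (adjusted p = 0.0113, limma) and Gclc, the catalytic subunit of the rate-limiting step, by 0.74 (adjusted p = 0.0119, limma). Keap1 (-0.41, 0.0348), the Nrf2 inhibitor gene, and Gstm1 (-1.15, 0.0262), a glutathione transferase gene, were lower. The Nrf2 gene Nfe2l2 (0.29, adjusted p = 0.0986, limma), Gclm (0.20, 0.502) and Slc7a11 (0.04, 0.947) did not pass. Nor did Gsr (-0.38, 0.126), Gsta4 (0.64, 0.251) and G6pdx (-0.003, 0.987). Over 20 alternatives the call was lost in 10 for Keap1, 5 for Gstm1, 3 for Gclc and 1 for Gss. Hmox1, the gene for heme oxygenase, was higher in ADSF than in ADSM by 2.59 and in NDSF by 2.20, and Gsta4, another transferase gene, was at least 147-fold and 86.4-fold higher. Gstm1 was higher than in ADSM by 3.09 in ADSF and 4.24 in NDSF. Pgd, of the pentose phosphate pathway that supplies NADPH, was lower by -1.46 and -1.76. Against ADSM, 8 were higher and 8 lower in ADSF (median 0.32, beside 41.0% and 30.1% of all tested genes), and 4 higher and 7 lower in NDSF (median 0.03, beside 43.3% and 32.0%).

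Around the near-silent Nos2, 9 of 14 nitric oxide and arginine genes were tested, and the arginase gene Arg1 and the arginine synthesis gene Ass1 were at or near 0 in all libraries. The arginine transporter gene Slc7a2 had no read in ADSM and means of 265 in ADSF and 482 in NDSF, at least 281-fold and 511-fold higher. Ddah1 and Ddah2, whose products degrade endogenous inhibitors of nitric oxide synthases, had 3 reads each in ADSM, and their pooled-read ratios in ADSF were 819 (95% counting interval 279.9 to 3975) and 70.7 (23.8 to 346). Ddah1 was also higher in ADSF than in NDSF by 2.35 (adjusted p = 0.0133, limma), with 82.8 to 388 over the NDSF libraries, the highest being library 3, and Slc7a2 was lower by -0.87 (adjusted p = 0.00788, limma). Pts, which makes a precursor of the synthase cofactor, was lower in ADSF than in NDSF by -0.67 (adjusted p = 0.0341, limma) and lost its call in 6 of 20 alternatives. Against ADSM, Pts was lower by -1.43 in ADSF and -0.76 in NDSF (adjusted p = 5.64e-05 and 0.00444, limma). Slc7a1, another arginine transporter gene, was lower than in ADSM by -0.98 in ADSF and -1.67 in NDSF, and higher in ADSF than in NDSF by 0.69, a call lost in 9 of 20 alternatives. Those of Ddah1 and Slc7a2 were lost in 3 and 2. In all, 3 of the 9 were higher and 3 lower in ADSF than in ADSM (41.0% and 30.1% of all tested genes), and 4 and 2 in NDSF (43.3% and 32.0%). Between ADSF and NDSF, 2 were higher and 3 lower (21.2% of all tested genes in either direction).

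Of the metal suppliers of the dismutases, 4 were tested. Against ADSM, 1 was higher and 2 lower in each fibroblast group. Of all tested genes, 41.0% were higher and 30.1% lower in ADSF, and 43.3% and 32.0% in NDSF. Between ADSF and NDSF 1 was higher, beside 21.2% of all tested genes in either direction. The copper pump gene Atp7a passed in no comparison (-0.07 in ADSF and 0.11 in NDSF against ADSM, -0.18 between ADSF and NDSF). Atox1, the copper chaperone gene whose product hands copper to the secretory pathway where Sod3 is loaded, was lower by -0.61 in ADSF and -0.88 in NDSF than in ADSM (adjusted p = 0.000558 and 3.16e-05, limma). The copper importer gene Slc31a1 was lower by -0.30 and -0.32, and the manganese and zinc importer gene Slc39a14 was higher by 0.97 and 0.43, and also higher in ADSF than in NDSF by 0.54 (adjusted p = 0.0396, limma). The Slc31a1 call was lost in 6 of 20 alternatives between ADSF and ADSM and in 4 between NDSF and ADSM. The Slc39a14 call was lost in 8 between NDSF and ADSM and in 7 between ADSF and NDSF.

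**Figure D5:**
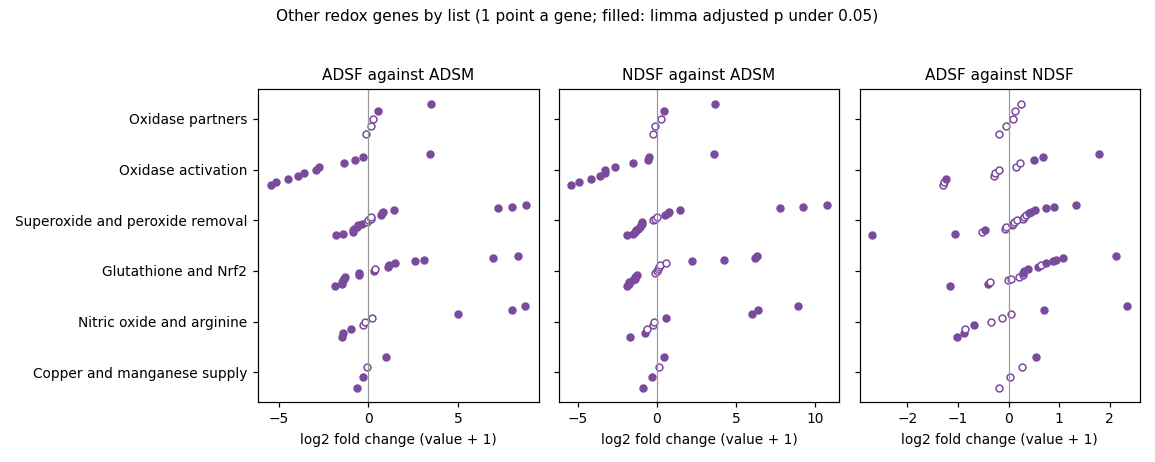
Log2 fold change on the value + 1 scale (x axis, a separate range in each panel) of every tested gene of 6 other redox lists (rows) in the 3 comparisons, filled where the limma adjusted p was under 0.05. Oxidase activation genes lie mostly left of 0 against ADSM, and of the glutathione and Nrf2 genes 9 are filled to the right and 2 to the left between ADSF and NDSF.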

How the data were processed

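RNA of 9 libraries was sequenced as paired reads on a MiSeq and mapped to mm10 with TopHat, and the submitters' processing notes also name Cufflinks, without versions. The authors deposited a table of TMM-normalized signal for 23420 genes in all 9 libraries, that is, reads divided by a factor per library, and a table of FPKM values for ADSM and ADSF. A further TMM table of those 6 libraries was not used here. The deposited tables also hold group means and p-values, q-values, ranks and calls of the authors' own comparisons, which were not used. The counting tool and its use of strand were not given in the sources used here.

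Every deposited value was a whole multiple of its library's value for 1 read (100% of 210780 values, within 0.001), which gave the reads behind it and the depth of 2380483 to 3351184 reads per library.

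Groups were taken from the labels. The 3 comparisons were fitted with limma 3.58.1 in R 4.3.3, on log2(value + 1) with a mean for each group and a variance trend, over the 11889 genes that reached 10 in 3 or more libraries, with Benjamini-Hochberg adjustment over them and a threshold of 0.05. The 20 alternatives were edgeR 4.0.16 and DESeq2 1.42.0 on the recovered reads, scaling by library totals or upper quartiles, pseudocounts of 0.5 and 5, no filter or a filter at 50, a model of the 2 groups compared, a replicate block, no trend, and leaving out each library. The pipeline was tested on simulated data. Intervals are at 95%.

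The 9 genes and the lists were chosen with earlier results of these data known. A gene of the oxidase partner list is not reported here and was left out of that list's counts. All 9 genes are named, and of each other list the 3 genes of smallest adjusted p per comparison and those against the direction of most. The genes most like a member are the 2 officially named ones with the smallest root mean square difference. Genes at the edge of a list's tested set, Duox1, Duox2, Nox1, Nox3, Arg1 and Ass1, were named after their values were seen. So were Sod1, Gpx1, Prdx1, Prdx3, Prdx6, Txn1, Txnrd2, Nfe2l2, Gclm, Slc7a11, Gsr, G6pdx and Atp7a. Promoters come from RefSeq on GRCm38.p6 and primers from the study's supplementary tables.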

Additional observations from a re-analysis of the deposited data

How the results depend on the processing

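Between ADSF or NDSF and ADSM, the 8 tested genes kept their direction and their call in all 20 alternatives. Between ADSF and NDSF, the number of the 8 that passed was 1, and was also 1 with edgeR and with DESeq2. It was 0 with only these 2 groups in the model, 0 with a replicate block and 0 without the trend, and ranged from 0 to 4 when each library was left out in turn. The number of all genes that passed was 2518, and 756 to 4086 with each library left out. Scaling by library totals divided these genes into 845 higher and 1581 lower, in place of 1175 and 1343, and moved the median of all genes by -0.32 for ADSF and -0.26 for NDSF against ADSM. Scaling by upper quartiles moved these medians by -0.15 and -0.14. The cause of these changes was not tested.

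Same-numbered libraries of different groups had correlations of their deviations from -0.14 to 0.178. Libraries with different numbers had -0.213 to 0.207, so this measure cannot tell whether the numbers pair the libraries. Under the replicate block, the Cybb difference between ADSF and NDSF kept its size of -1.29 with an adjusted p of 0.0576 (limma). With each library left out in turn, the Ncf4 difference between ADSF and NDSF ranged from -0.01 to 1.14 and that of Rac2 from -0.17 to 0.73. The signs that turned between ADSF and NDSF, all of differences that did not pass, were those of Ncf4 (-0.01) and Rac2 (-0.11) without ADSF replicate 2 and of Rac2 (-0.17) without NDSF replicate 3. Depth limits Nos2, with 12, 3 and 8 reads in ADSM, ADSF and NDSF, and Ncf4 in fibroblasts.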
